A study of Homo sapiens with 60 samples.

Results

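The genes described are 48 interferon-stimulated genes, a set listed by symbol, in HT29 cells, an established human colorectal adenocarcinoma line. The set was chosen with earlier results of these data known, and the effect of that choice on the shares called was not tested. All 48 matched a row in the deposited table of 60675 genes, and all 48 were among the 16767 genes that passed the filter on low counts. SAMD9L and TRIM22 passed that filter only through the wortmannin libraries, so both had to be higher there, and counts are therefore also given for the other 46. Messenger RNA was sequenced from 60 libraries after 24 h of treatment. Vehicle was 0.1% DMSO by the sample labels, while the series text gives another share. No DMSO share is recorded here for the other groups. Wortmannin and LY294002, which the study used as positive controls, were each given at 10 µM. The remaining groups received a water extract of Poria cocos, Atractylodis Rhizoma, Glycyrrhizae Radix (licorice root), Panax Ginseng, Angelicae Gigantis Radix or Paeoniae Radix at 500, 100 or 20 µg/mL, named below by their first word or, for Panax Ginseng, as Ginseng. Each group had 3 libraries, except the Paeoniae groups, for which 2 were analysed here. The labels name 1 cell line and list no interferon treatment. The sample codes of the vehicle libraries begin with the letter A, and those of no other library do. What the letter stands for is not given, so in each comparison with vehicle it cannot be told apart from the treatment. Every sample title also carries the label BatchA, so the titles name no difference in batch. Separate cultures are not stated for the replicates, so p-values measure only the spread between these libraries, which may be technical.

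Interferons are secreted proteins that bind receptors on the cell surface. The receptor-bound kinases JAK1 and TYK2 then activate transcription factors, among them STAT2, which acts with IRF9 in the complex ISGF3. ISGF3 binds a short DNA element, the interferon-stimulated response element, in front of interferon-stimulated genes, whose proteins sense viral RNA, degrade or modify it, block viral entry or assembly, or feed back on the pathway. Epithelial cells keep a low level of these genes without added interferon, through transcription factors already present. Wortmannin and LY294002 are unrelated inhibitors of phosphoinositide 3-kinase (PI3K): the first is a fungal furanosteroid that binds the kinase covalently, the second a synthetic morpholine-substituted chromone that competes with ATP reversibly, and both also act on other kinases.

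The core of the response element, GAAA and GAAA with 2 bases of any kind between them, was searched on both strands in 300-base RefSeq promoters (GRCh38.p14), which reach from 250 bases before to 50 bases after a start site. Of the 48 members, 40 had a promoter in that table. The core was found for 28 of these 40 (70%), against 4.38% of all 27305 genes with a promoter. The gamma-activated site TTCNNNGAA, a second interferon-responsive element, was found for 12 of the 40 (30%), against 9.38% of all genes. The 6 stretches below are examples from members that rose with wortmannin, described below. They are not the 6 largest changes: EPSTI1, IFITM1 and MX1 also hold the core and changed more than all of these but IFI44L. Capitals mark the core, which reads as TTTC, 2 bases and TTTC where it lies on the other strand. They lie in ISG15 (chr1:1013364-1013419, plus strand), IFIT1 (chr10:89392487-89392549, plus), IFI27 (chr14:94110608-94110670, plus), IFI6 (chr1:27672256-27672368, minus), IFI44L (chr1:78620264-78620404, plus) and RSAD2 (chr2:6877612-6877661, plus). In GENCODE 29 no exon overlaps the stretches of ISG15, IFI27, IFI6 and RSAD2, while the last 4 bases of the IFIT1 stretch and 23 bases of the IFI44L stretch fall in an annotated exon of that gene.
ISG15: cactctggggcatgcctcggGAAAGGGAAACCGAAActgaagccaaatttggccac
IFIT1: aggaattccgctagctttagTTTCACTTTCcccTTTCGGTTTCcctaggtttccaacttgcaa
IFI27: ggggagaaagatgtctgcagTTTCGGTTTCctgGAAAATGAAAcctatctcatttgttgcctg
IFI6: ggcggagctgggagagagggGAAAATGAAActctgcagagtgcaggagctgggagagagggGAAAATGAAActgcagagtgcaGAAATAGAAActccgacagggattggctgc
IFI44L: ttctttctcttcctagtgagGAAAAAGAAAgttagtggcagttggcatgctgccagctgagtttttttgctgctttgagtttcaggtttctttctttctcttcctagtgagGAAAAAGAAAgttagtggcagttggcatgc
RSAD2: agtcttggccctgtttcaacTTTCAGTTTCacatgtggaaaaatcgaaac
ISG15, IFIT1, IFI27 and IFI44L hold the core at 2 places, IFI6 at 3 and RSAD2 at 1. In ISG15 the matches overlap, in IFI27 they face in opposite directions, and in IFI44L the same 10 letters recur. A match is a description of the letters and not a measured binding site. Many members also lie side by side: 10 clusters of members less than 100000 bases apart hold, among others, IFIT1, IFIT2, IFIT3 and IFIT5 on chromosome 10, OAS1, OAS2 and OAS3 on chromosome 12, and MX1 and MX2 on chromosome 21. PARP9 and DTX3L share a single match.

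Library totals ranged from 20431980 to 35477712 expected counts, and mitochondrially encoded genes took 6.97% to 11.4% of them. The labelled cell type was checked on markers: all 12 colon epithelium markers were detected, with a summed level of 11840 to 17120 CPM (each gene's count over the scaled library total, times 1e+06). Of these, CDX1 had a mean under 1 CPM (0.864). Of 10 leukocyte markers, 7 had a mean under 1 CPM, with MS4A1 and FCGR3A at 0 in all 60 libraries, and LYZ alone, at 1243 to 2544 CPM, made up most of the sum of 1253 to 2552 CPM. The leukocyte markers CD68 and CD14 had means of 6.75 and 3.59 CPM. CD68 was thus above the epithelium markers CDX1, CDX2 (5.07), CDH17 (4.59) and GPA33 (3.41). The 5 markers of plasmacytoid dendritic cells, which specialise in making interferon, summed to at most 1.14 CPM, with CLEC4C at 0 in every library. In bulk RNA, fewer cells of a type and less RNA per cell cannot be told apart.

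Under vehicle the members spanned a wide range. Per kilobase of exon, LGALS3BP, a secreted galectin-binding glycoprotein, was highest at 208 ± 10.9 CPM per kb (SD, n = 3), followed by BST2, which tethers budding virus to the cell, at 33.6 ± 0.853 and by the RNA-editing enzyme ADAR at 32.1 ± 0.495. ISG15, a ubiquitin-like protein, ranked 5 of 48 at 19.2 ± 2.43 CPM per kb. At the other end stood SAMD9L and TRIM22, at 0.0139 ± 0.0122 and 0.0142 ± 0.0123 CPM per kb. In CPM, 10 members had a vehicle mean under 1: MX2, IFI44L, UBE2L6, HERC5, IFITM1, RSAD2, SAMD9L, TRIM22, XAF1 and EPSTI1. Their values rest on few reads: SAMD9L had 0, 4 and 3 counts in the vehicle libraries, and IFI44L had 11, 20 and 7.

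Nearly the whole set was higher with wortmannin. The words rose, fell and called stand for an adjusted p under 0.05 in edgeR's quasi-likelihood test with Benjamini-Hochberg adjustment over all genes tested. Of the 48 members, 44 rose and 0 fell (91.7% called), whereas 6.26% of all genes tested were called higher and 13.7% were called either way. Fold changes below are on the log2 scale with a standard error (SE). The median log2 fold change of the members was 0.78, against 0 over all genes tested, and 17 members were at least 2-fold higher. In 44 members every wortmannin library lay above every vehicle library, which held for 13.6% of all genes. Among the 46 members that passed the filter without the wortmannin libraries, 42 rose and 0 fell, with a median of 0.72. Leaving out any 1 library left between 37 and 43 of the 48 members called.

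The shift was present in each wortmannin library. For each library the median over the 48 members of the log2 difference from the vehicle mean was taken. It was 0.57, 0.75 and 0.73 in the 3 wortmannin libraries, and between -0.02 and 0.07 in the vehicle libraries. Wortmannin replicate 1 was lower than the other 2, yet 46 of its 48 members lay above the vehicle mean, as did all 48 in replicates 2 and 3. The summed colon epithelium markers were also higher, at 13660 to 14150 CPM with wortmannin and 11950 to 12510 CPM with vehicle. Most of this sum was KRT8 and KRT18, with means of 6454 and 3769 CPM with vehicle and 7310 and 4482 CPM with wortmannin. EPCAM, CDX1, CDH17, GPA33 and CEACAM5 had lower means with wortmannin than with vehicle, and the other markers of that list higher means. The leukocyte list stood at 1827 to 1899 and 1378 to 1442 CPM, with 7 of its 10 markers under 1 CPM in either group, and the plasmacytoid dendritic cell list at 0.601 to 0.917 and 0.740 to 0.896 CPM. The part of these differences in the members' values was not tested.

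**Figure D1:**
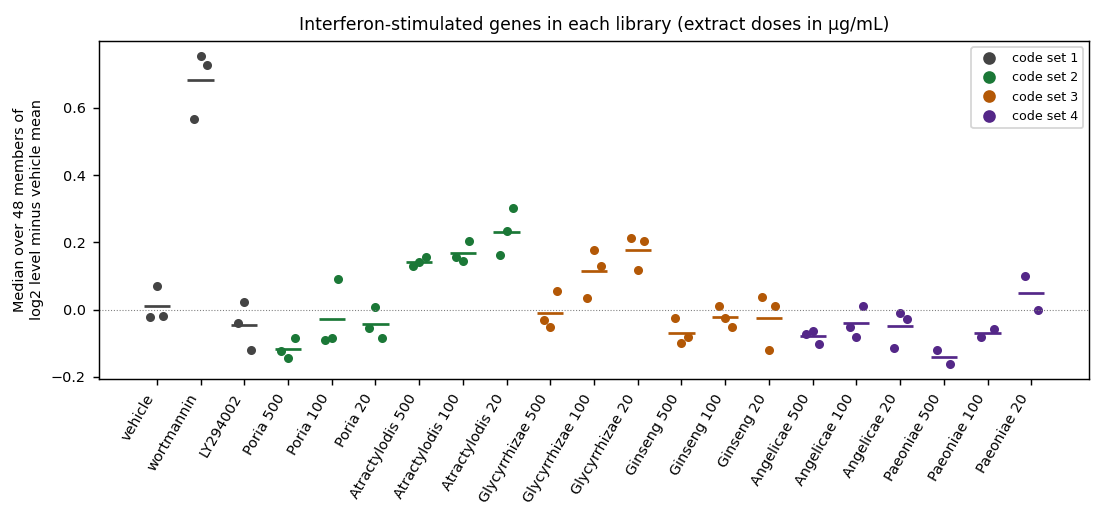
Median over the 48 members of the log2 level minus the vehicle mean (y axis), 1 point per library and a line at the group mean, for the 21 groups (x axis, extract doses in µg/mL), coloured by the leading number of the sample code (code set). The 3 wortmannin libraries lie between 0.57 and 0.75, all other libraries between -0.16 and 0.30.

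Among the sensors of viral nucleic acid, all 5 members rose with wortmannin. The helicase DDX60 rose most, by 1.25 ± 0.14 (log2, SE), its relative DDX60L by 0.75 ± 0.11 and the double-stranded RNA sensor IFIH1 (MDA5) by 0.58 ± 0.09. The RNA-activated kinase EIF2AK2 (PKR) and ADAR changed less, by 0.33 ± 0.06 and 0.11 ± 0.03. All 4 oligoadenylate synthetases, enzymes that make the messenger which activates RNase L or, for OASL, act on RNA sensing, rose by 0.57 (OAS3) to 1.84 (OAS2). OAS2 was at 3.20, 3.99 and 2.7 CPM with vehicle and at 8.08, 12.8 and 14.8 CPM with wortmannin. The groups did not overlap, and the log2 fold change was 1.84 ± 0.21 (adjusted p = 7.59e-09).

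All 4 IFIT genes, whose products bind foreign RNA ends, rose by 0.45 (IFIT5) to 1.47 (IFIT1). IFIT1 had the smallest adjusted p of the set, 6.49e-14, with 4.31, 5.14 and 3.36 CPM under vehicle and 11.0, 12.4 and 12.3 CPM under wortmannin. Both MX GTPases, which trap viral ribonucleoproteins and capsids, rose. MX1 was at 6.62, 6.37 and 6.06 CPM with vehicle and at 15.4, 21.3 and 21.4 CPM with wortmannin, a log2 fold change of 1.61 ± 0.14 (adjusted p = 9.44e-12). MX2 went from 1.02, 1.19 and 0.707 CPM to 3.02, 5.06 and 3.42 CPM, by 1.97 ± 0.26 (adjusted p = 1.81e-07). In all 3 genes the lowest wortmannin library was above the highest vehicle library.

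The 5 IFI genes rose by 0.89 (IFI35) to 2.84 (IFI44L). IFI44L, a paralogue of the cytoplasmic protein IFI44, showed the largest change of the set. It was at 0.470, 0.822 and 0.309 CPM with vehicle and at 3.02, 4.37 and 4.30 CPM with wortmannin, without overlap, and differed by 2.84 ± 0.35 (adjusted p = 4.60e-08). IFI6 and IFI27, small mitochondrial and membrane proteins, rose by 1.57 ± 0.21 and 1.38 ± 0.18. IFI6 moved from rank 15 to rank 8 of the 48 by CPM per kb.

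In the ISG15 system 4 of 5 members rose. ISG15 itself rose by 0.89 ± 0.10, its conjugating enzyme UBE2L6 by 1.73 ± 0.29, the ligase-family protein HERC6 by 0.99 ± 0.10 and the ISG15 protease and receptor inhibitor USP18 by 0.57 ± 0.15. UBE2L6 was at 0.470, 0.781 and 0.663 CPM with vehicle and at 1.92, 2.09 and 2.40 CPM with wortmannin (adjusted p = 1.47e-05), with no overlap. HERC5, the main human ISG15 ligase, was not called, at 0.469, 0.699 and 0.177 CPM against 0.863, 0.550 and 0.462 CPM, and these groups overlapped. Of the transcription factors, the ISGF3 subunits IRF9 and STAT2 rose by 0.99 ± 0.13 and 0.40 ± 0.09 and IRF7, an amplifier of interferon production, by 0.40 ± 0.10. Of the annotated exon bases of IRF9, 48.4% are shared with AL136295.5, another gene on the same strand, so its counts are uncertain. TRIM22 shares 10.7% with OR56B1 on the same strand. Genes on the opposite strand share 38.3% of XAF1 (PRAL), 22% of IRF1 (C5orf56) and 21.3% of IFITM3 (AC136475.5). The strand setting of the counting is not given, so the part of these overlaps in the counts is not known. IRF1, a transcription factor known as an early interferon-gamma target, did not pass: it was at 32.5, 33.4 and 31.4 CPM with vehicle and at 31.0, 34.2 and 35 CPM with wortmannin, a log2 fold change of 0.04 ± 0.07 (adjusted p = 0.769).

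**Figure D2:**
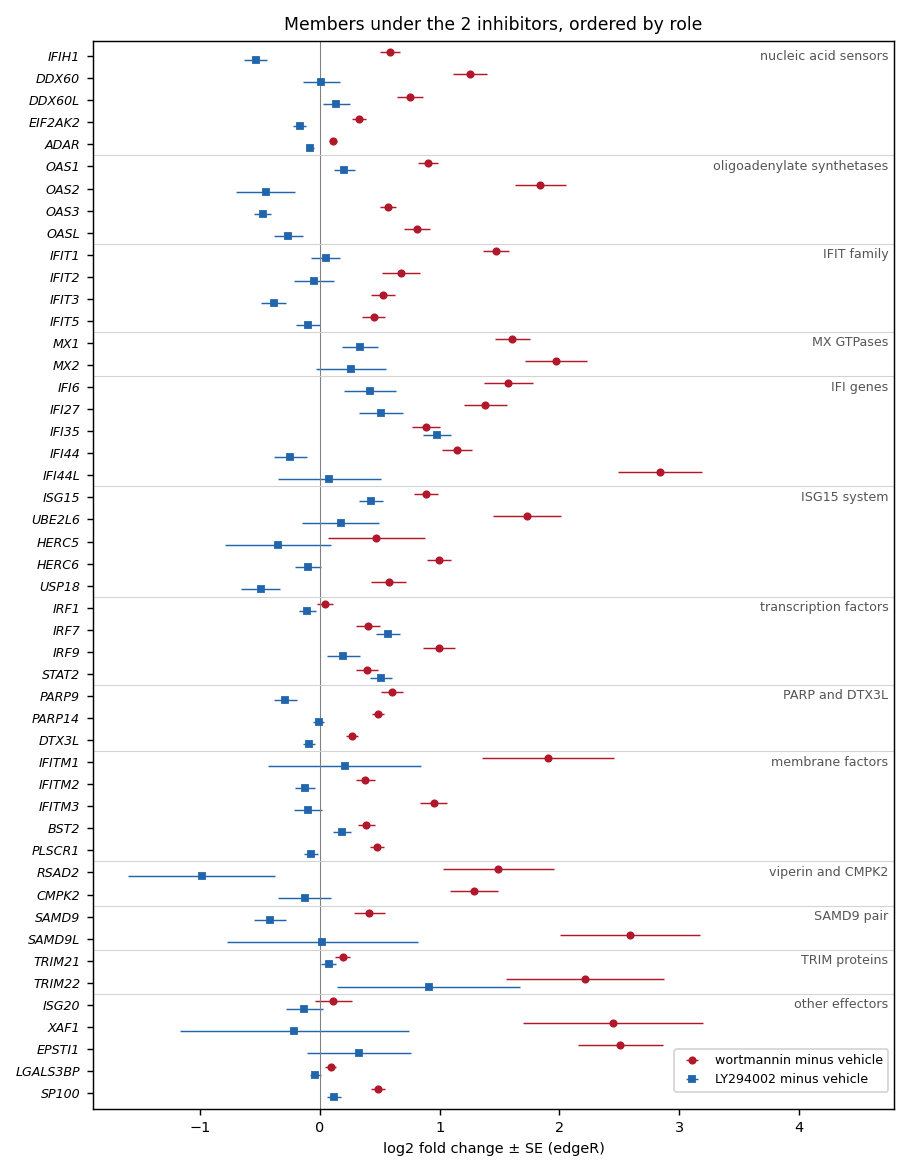
Log2 fold change against vehicle ± SE (x axis) of each of the 48 members (y axis, grouped by role) with wortmannin (circles) and LY294002 (squares), 3 libraries per group. The wortmannin values run from 0.04 (IRF1) to 2.84 (IFI44L), and the LY294002 values from -0.99 (RSAD2) to 0.98 (IFI35).

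PARP9, PARP14 and DTX3L, an ADP-ribosyltransferase pair and the ubiquitin ligase that partners PARP9, rose by 0.60, 0.48 and 0.27. All 5 membrane factors rose, from 0.38 (IFITM2) to 1.90 (IFITM1). The IFITM proteins block the fusion of viruses with endosomes. IFITM1 was at 0.341, 0.329 and 0.309 CPM with vehicle and at 0.745, 1.28 and 1.71 CPM with wortmannin, apart, by 1.90 ± 0.55 (adjusted p = 0.0136). Without wortmannin replicate 3 its adjusted p was 0.0665, and IFITM1 and IFITM2 share 351 exon bases, so their reads may be divided between them. RSAD2 (viperin, which makes a chain-terminating nucleotide) and its neighbour CMPK2, a nucleotide kinase, rose by 1.49 ± 0.47 and 1.29 ± 0.20.

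Several weakly expressed members had large fold changes with wide errors. SAMD9L, a translation inhibitor, was at 0, 0.164 and 0.133 CPM with vehicle and at 0.353, 0.697 and 0.832 CPM with wortmannin (2.59 ± 0.59, adjusted p = 0.00145), while its neighbour SAMD9, expressed far higher, rose by 0.41 ± 0.13. TRIM22, an antiviral ubiquitin ligase, was at 0.171, 0.0411 and 0.0442 CPM and at 0.510, 0.477 and 0.231 CPM (2.21 ± 0.66, adjusted p = 0.0169). It was not called without vehicle replicate 2 or 3 (adjusted p = 0.0941 and 0.0795). In both genes the groups did not overlap. Both passed the filter on low counts only through the wortmannin libraries, so a higher level there was a condition of their being tested.

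XAF1, a proapoptotic partner of XIAP, was at 0.427, 0.411 and 0.265 CPM with vehicle and at 0.785, 3.27 and 2.03 CPM with wortmannin (2.45 ± 0.75, adjusted p = 0.0215). Its wortmannin libraries lay above the vehicle libraries but differed widely among themselves. XAF1 was not called without vehicle replicate 1, 2 or 3 or without wortmannin replicate 2, with adjusted p of 0.0570, 0.0635, 0.0813 and 0.159. EPSTI1, an interferon-inducible protein of epithelial and immune cells, was at 0.213, 0.329 and 0.265 CPM and at 1.22, 1.80 and 1.66 CPM (2.51 ± 0.35, adjusted p = 8.02e-07), without overlap. Apart from HERC5 and IRF1, the members not called were the exonuclease ISG20 (0.11 ± 0.15) and LGALS3BP (0.09 ± 0.05), and all 4 had overlapping groups.

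Fold changes with wortmannin were also set against the core letters, as a description. The 28 members with the core in a promoter had a median log2 fold change of 0.59 with 25 called, the 12 without it 0.95 with 11 called, and the 8 members not in the promoter table had a median of 0.75 with all 8 called. IFI44L, with a repeated core, had the largest fold change, and LGALS3BP, which also holds the core, one of the smallest (0.09).

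Of 71 further genes of the interferon pathway, 54 were tested, and 18 rose and 1 fell with wortmannin, where 6.26% of all genes were called higher and 7.46% lower. The single tested ligand, IFNE, an interferon of epithelia, was at 7.26, 6.29 and 5.70 CPM with vehicle and at 9.06, 7.52 and 7.12 CPM with wortmannin (adjusted p = 0.0585). The list held 11 interferon ligands, and all but IFNE were untested. Of the untested ligands, IFNB1, IFNA2, IFNA5, IFNW1, IFNG and IFNL3 had no count in the vehicle and wortmannin libraries. That allows a level of up to 0.138 CPM in the shallowest of these libraries (3 counts of its total, counting error only). For the remaining untested ligands no level is given here, and they may have held reads. None of the 6 receptor genes was called. The RNA sensors RIGI and DHX58 rose by 0.67 ± 0.08 and 0.92 ± 0.15, TLR3 by 0.44, STING1 by 0.45 and TRIM25 by 0.12. Of 22 tested further targets 11 rose: GBP1, GBP2, GBP4, APOL1, SP110, ZNFX1, RNF213, PARP10, PARP12, SHFL and TDRD7, by 0.16 (ZNFX1) to 1.02 (GBP4). Of the negative regulators, the phosphatase PTPN6 rose by 0.25 and PTPN11 fell by 0.13.

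LY294002 did not move the set as a whole. Of the 48 members 6 rose and 7 fell (27.1% called), below the 39.2% of all genes tested that were called in this comparison, in which 18.7% were called higher and 20.5% lower. The median log2 fold change of the members was -0.05, against 0.01 over all genes. Library medians over the members were -0.04, 0.02 and -0.12. The summed colon epithelium markers were at 15010 to 17120 CPM and the leukocyte list at 1980 to 2552 CPM, both above vehicle. KRT8 and KRT18 again made up most of the epithelium sum, while EPCAM, CDX1, CDH17, GPA33 and CEACAM5 had lower means than with vehicle. The part of these marker differences in the members' values was not tested.

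The members that rose with LY294002 were IFI35, IRF7, STAT2, IFI27, ISG15 and BST2. IFI35, a leucine zipper protein that modulates RIGI signalling, was at 8.02, 7.07 and 6.06 CPM with vehicle and at 12.1, 12.5 and 17.1 CPM with LY294002, without overlap (0.98 ± 0.12, adjusted p = 1.88e-09). IRF7 was at 23.9, 26.7 and 24.0 CPM and at 36.4, 41.8 and 32.1 CPM (0.56 ± 0.10, adjusted p = 1.18e-05), and STAT2 at 19, 17.8 and 19.7 CPM and at 24.8, 25.7 and 29.8 CPM (0.51 ± 0.09, adjusted p = 1.21e-05). In both factors all LY294002 libraries were above vehicle. ISG15 went from 19.7, 19.1 and 15.5 CPM to 21.3, 23.4 and 28.2 CPM (0.43 ± 0.10, adjusted p = 0.00055).

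The calls of IFI27 and BST2 were lost in several of the fits that left out 1 library. IFI27 was at 10.1, 10.6 and 7.34 CPM with vehicle and at 11.8, 14.7 and 13.4 CPM with LY294002 (0.51 ± 0.19, adjusted p = 0.026). It was not called without vehicle replicate 3, LY294002 replicate 2 or LY294002 replicate 3 (adjusted p = 0.17, 0.101 and 0.058). BST2 was at 38.7, 36.8 and 37.3 CPM and at 39.5, 39.1 and 49.5 CPM (0.18 ± 0.07, adjusted p = 0.0435). It was not called without any 1 of the vehicle libraries (adjusted p = 0.0521, 0.118 and 0.0979) or without the high LY294002 replicate 3, which left 0.06 (adjusted p = 0.564).

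The members that fell with LY294002 were IFIH1, EIF2AK2, OAS3, IFIT3, USP18, PARP9 and SAMD9. IFIH1 was at 11.3, 12.3 and 11.7 CPM with vehicle and at 7.85, 9.27 and 7.16 CPM with LY294002 (-0.54 ± 0.09, adjusted p = 7.23e-06). OAS3 was at 100.01, 111 and 108 CPM and at 78.7, 82.6 and 67.8 CPM (-0.48 ± 0.07, adjusted p = 3.28e-07). USP18 was at 3.46, 3.33 and 3.36 CPM and at 2.37, 2.23 and 2.59 CPM (-0.50 ± 0.16, adjusted p = 0.0124). In all 3 genes the groups were apart, though USP18 had an adjusted p of 0.0515 without LY294002 replicate 2. IFIT3 was at 8.49, 8.51 and 8.36 CPM with vehicle and lower in every LY294002 library, at 6.38, 6.96 and 6.04 CPM (-0.39 ± 0.11, adjusted p = 0.00311). SAMD9 was at 79.9, 87.4 and 75.5 CPM and at 67.6, 72.5 and 41.6 CPM (-0.42 ± 0.13, adjusted p = 0.01). Its LY294002 replicate 3 was far below the other 2, and without it the log2 fold change was -0.21 (adjusted p = 0.219), while without vehicle replicate 2 the adjusted p was 0.0557. EIF2AK2 and PARP9 fell by 0.17 and 0.29, and the PARP9 groups overlapped.

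Of the 54 tested pathway genes, 13 rose and 12 fell with LY294002, where 18.7% of all genes were called higher and 20.5% lower, so many calls are found among genes of any kind. IFNE was at 13.4, 14.8 and 10.7 CPM, above every vehicle library (1.01 ± 0.10, adjusted p = 5.75e-11). The receptor chain IFNAR2 rose by 0.43 ± 0.11, IFNGR2 by 0.24 ± 0.10 and JAK1 by 0.20 ± 0.05. The sensors TLR3 and CGAS fell by 0.48 and 0.55 and the kinase TBK1 by 0.23, whereas DHX58 and STING1 rose by 0.40 and 0.26. Of the 22 tested further targets, GBP2, SHFL and TDRD7 rose by 0.32 to 0.39. The other 6 called, CXCL11, WARS1, APOL6, NMI, TRIM14 and ZC3HAV1, fell, with log2 fold changes from -1.48 (CXCL11) to -0.18 (NMI).

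Compared directly, the 2 inhibitors differed over most of the set. With wortmannin 40 members were higher than with LY294002 and 0 were lower (83.3% called, against 12.7% of all genes called higher and 22.2% called either way). The median log2 difference was 0.88, and in 38 members every wortmannin library was above every LY294002 library, which held for 16.1% of all genes. Of the 46 members that passed the filter without the wortmannin libraries, 39 were higher. The 10 largest differences, all higher with wortmannin, were those of IFI44L, XAF1, SAMD9L, RSAD2, OAS2, EPSTI1, MX2, IFITM1, UBE2L6 and IFIT1, from 2.77 ± 0.34 for IFI44L to 1.42 ± 0.11 for IFIT1. Of these, SAMD9L was tested only because of its level in the wortmannin libraries. OAS2 was at 2.68, 3.01 and 1.54 CPM and RSAD2 at 0.117, 0.186 and 0.0750 CPM with LY294002. RSAD2 was at 0.628, 0.807 and 0.740 CPM with wortmannin, and in both genes the inhibitors were apart (2.29 ± 0.22 and 2.48 ± 0.52, adjusted p = 1.65e-11 and 0.00027). XAF1 (2.67 ± 0.76, adjusted p = 0.00747) was not called without wortmannin replicate 2 or LY294002 replicate 2, with adjusted p of 0.0798 and 0.0520. IFITM1 (1.70 ± 0.52, adjusted p = 0.0143), whose groups overlapped, was not called without wortmannin replicate 3, LY294002 replicate 1 or LY294002 replicate 3, with adjusted p of 0.0912, 0.0813 and 0.0936.

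Set side by side against the shared vehicle libraries, 7 members went in opposite directions: IFIH1, EIF2AK2, OAS3, IFIT3, USP18, PARP9 and SAMD9 were higher with wortmannin and lower with LY294002. IFI27, ISG15 and BST2 were higher with both and higher with wortmannin than with LY294002. IFI35, IRF7 and STAT2 were higher with both, and the direct differences (wortmannin minus LY294002) were -0.09, -0.16 and -0.11, with 95% intervals of -0.31 to 0.13, -0.36 to 0.03 and -0.29 to 0.07. These intervals bound the difference and do not show that the inhibitors act alike on the 3 genes. IRF1, HERC5 and ISG20 were called in none of the 3 comparisons.

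**Figure D3:**
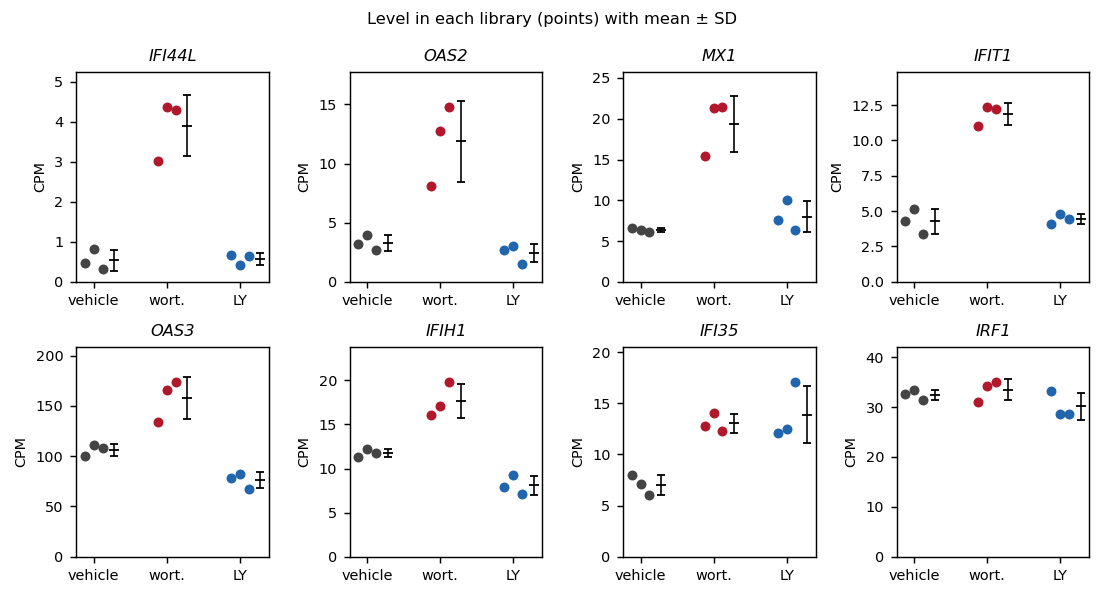
CPM (y axis, from 0) of 8 members in each of the 3 libraries (points) with vehicle, wortmannin (wort.) and LY294002 (LY), with mean ± SD beside them. OAS3 and IFIH1 lie above vehicle with wortmannin and below it with LY294002, IFI35 lies above vehicle with both, and the IRF1 groups overlap.

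Few members were called with the extracts. Each comparison of an extract with vehicle also compares sample code sets: the leading number of the code is 1 in the vehicle and inhibitor libraries, 2 where Atractylodis or Poria was given, 3 where Ginseng or Glycyrrhizae was given and 4 for the Paeoniae and Angelicae libraries. What it stands for is given nowhere in the labels, so in these comparisons extract and code set cannot be told apart. The letter A before the number in the vehicle codes, and any difference in DMSO, cannot be told apart from the extract either. Comparisons of 500 with 20 µg/mL of an extract stay within a code set.

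**Figure D4:**
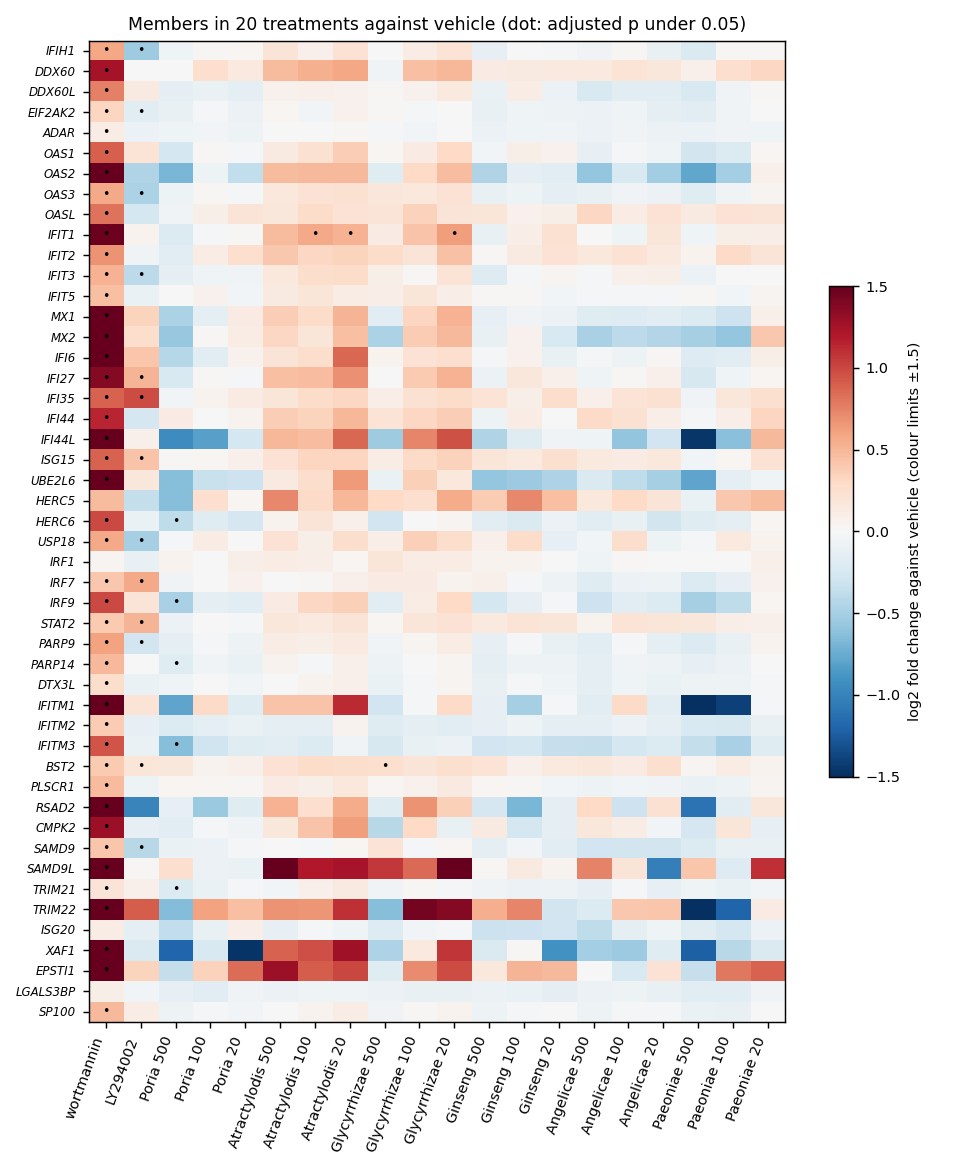
Log2 fold change against vehicle (colour, limits ±1.5) of the 48 members (rows, ordered by role) in 20 treatments (columns, extract doses in µg/mL). A dot marks an adjusted p under 0.05: 44 members with wortmannin, 13 with LY294002 and between 0 and 5 with each extract and dose.

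With Poria at 500 µg/mL 5 members fell against vehicle and 0 rose (10.4% called, against 2.89% of all genes called lower and 7.49% either way). The median of the members was -0.14, and 14 members had all Poria libraries below all vehicle libraries, which held for 11.4% of all genes. Among the 5 called members IFITM3, the endosomal restriction factor, had the largest change, from 14.2, 16.0 and 15.3 CPM with vehicle to 9.96, 9.75 and 9.51 CPM (-0.64 ± 0.12, adjusted p = 0.000584). IRF9 went from 10.2, 11.7 and 11.4 CPM to 8.42, 7.38 and 7.89 CPM (-0.49 ± 0.15, adjusted p = 0.0316) and HERC6 from 8.07, 9.25 and 8.18 CPM to 5.82, 6.38 and 7.40 CPM (-0.38 ± 0.11, adjusted p = 0.0252). In all 3 genes the groups were apart. PARP14 went from 154, 161 and 154 CPM to 132, 136 and 144 CPM (-0.19 ± 0.05, adjusted p = 0.00848) and TRIM21, an antibody receptor and ubiquitin ligase in the cytosol, from 19, 20.3 and 20.9 CPM to 17.2, 17.9 and 17.1 CPM (-0.20 ± 0.07, adjusted p = 0.0474), also without overlap.

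These calls were fragile apart from that of IFITM3, which shares 21.3% of its exon bases with AC136475.5 on the opposite strand. Only 1 member was called without vehicle replicate 2 or without Poria 500 replicate 1, and only 2 when vehicle and Poria 500 were fitted alone. Leaving out 1 library ended the call of IRF9 for vehicle replicate 2 or 3 and for each Poria 500 replicate (adjusted p 0.0572 to 0.114). HERC6 was lost when vehicle replicate 2 or 3, or the first or second Poria 500 library, was left out (0.0566 to 0.176), PARP14 without vehicle replicate 2 or Poria 500 replicate 1 (0.059 and 0.0764), and TRIM21 in every fit lacking vehicle replicate 2, vehicle replicate 3 or a Poria 500 library (0.0589 to 0.213). Of the pathway genes, RIGI and MAVS fell by 0.31 ± 0.08 and 0.13 ± 0.04, and CGAS and PTPN11 rose by 0.20 ± 0.06 and 0.16 ± 0.04.

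Within the Poria series, MX1 and IFITM3 were lower at 500 than at 20 µg/mL and 0 members were higher (4.17% called, against 2.3% of all genes called lower and 5.51% either way). IFITM3 was at 13.1, 13.3 and 13.6 CPM at 20 µg/mL and at 11.6, 11.8 and 13.6 CPM at 100 µg/mL, so that every 500 µg/mL library was below every library at the lower doses (500 against 20: -0.45 ± 0.13, adjusted p = 0.0232). MX1 was at 6.47, 7.99 and 6.21 CPM at 20 µg/mL, 4.87, 5.31 and 7.09 CPM at 100 µg/mL and 4.49, 4.79 and 4.42 CPM at 500 µg/mL (-0.60 ± 0.16, adjusted p = 0.0187). No MX1 library at 500 reached any at 20. Leaving out 1 library could end both calls: 0 members were called without Poria 20 replicate 2 or Poria 500 replicate 3. MX1 was also lost without Poria 500 replicate 1 (adjusted p = 0.0632). IFITM3 was also lost without Poria 500 replicate 1 or 2 or Poria 20 replicate 3 (0.0532, 0.0599 and 0.0718). The difference of the 500 against 20 effect between Poria and Atractylodis, tested as an interaction, was called in 0 members by edgeR's quasi-likelihood test. There 3 members had an unadjusted p under 0.05, for which no share of all genes is given. By adjusted p, 0.394% of all genes were called. The dose effect was therefore not shown to be particular to Poria.

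With Glycyrrhizae at 500 µg/mL BST2 rose against vehicle and no other member was called (2.08% called, against 3.65% of all genes called higher and 6.91% either way). BST2 was at 38.7, 36.8 and 37.3 CPM with vehicle and at 46.9, 43.4 and 43.0 CPM with the extract, without overlap (0.24 ± 0.07, adjusted p = 0.0344). The call was lost without vehicle replicate 2 or 3 or Glycyrrhizae 500 replicate 1 (adjusted p = 0.115, 0.117 and 0.173). Of the pathway genes APOL1 rose by 0.26 ± 0.08 and IFNE fell by 0.48 ± 0.12.

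Within the Glycyrrhizae series, 5 members were lower at 500 than at 20 µg/mL and 0 were higher (10.4% called, against 2.02% of all genes called lower and 3.85% either way), with a member median of -0.18. MX1 was at 9.52, 9.13 and 8.72 CPM at 20 µg/mL, 7.04, 9.03 and 7.73 CPM at 100 µg/mL and 5.99, 5.21 and 5.73 CPM at 500 µg/mL (500 against 20: -0.69 ± 0.15, adjusted p = 0.00477). IFIT1 was at 6.66, 6.18 and 6.99 CPM at 20 µg/mL, 5.07, 6.26 and 6.07 CPM at 100 µg/mL and 4.57, 4.31 and 5.18 CPM at 500 µg/mL (-0.50 ± 0.11, adjusted p = 0.00551). For both, no library at 500 reached those at 20. The MX1 libraries at 100 µg/mL all lay above those at 500, while for IFIT1 the lowest library at 100 lay below the highest at 500.

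DDX60 was at 5.84, 5.54 and 6.28 CPM at 20 µg/mL and at 3.71, 4.39 and 3.94 CPM at 500 µg/mL (-0.56 ± 0.15, adjusted p = 0.0197). IFI44L was at 1.10, 0.917 and 1.12 CPM and at 0.300, 0.313 and 0.513 CPM (-1.49 ± 0.42, adjusted p = 0.0304), and IRF9 at 14.1, 11.0 and 15.7 CPM and at 10.1, 9.20 and 10.3 CPM (-0.47 ± 0.14, adjusted p = 0.0458). All 3 were apart. Without Glycyrrhizae 20 replicate 3, 1 member was called. IFIT1 then had an adjusted p of 0.0595, DDX60 of 0.127, IFI44L of 0.125 and IRF9 of 0.336. IFI44L was also lost without Glycyrrhizae 20 replicate 1 or any 1 of the Glycyrrhizae 500 libraries (0.0505 to 0.14), DDX60 without Glycyrrhizae 500 replicate 1 or 3 (0.114 and 0.0806), and IRF9 without Glycyrrhizae 20 replicate 1 or any 1 of the Glycyrrhizae 500 libraries (0.0982 to 0.15). MX1 kept its call in each of these fits. The pathway genes IFNE and RIGI fell by 0.48 and 0.27 between the same doses. The difference of the 500 against 20 effect between Glycyrrhizae and Ginseng, tested as an interaction, was called in 0 members by edgeR's quasi-likelihood test. By the same adjusted p, 0.0477% of all genes were called. An unadjusted p under 0.05 was found for 5 members, and no share of all genes is given for that threshold. The dose effect was therefore not shown to be particular to Glycyrrhizae.

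**Figure D5:**
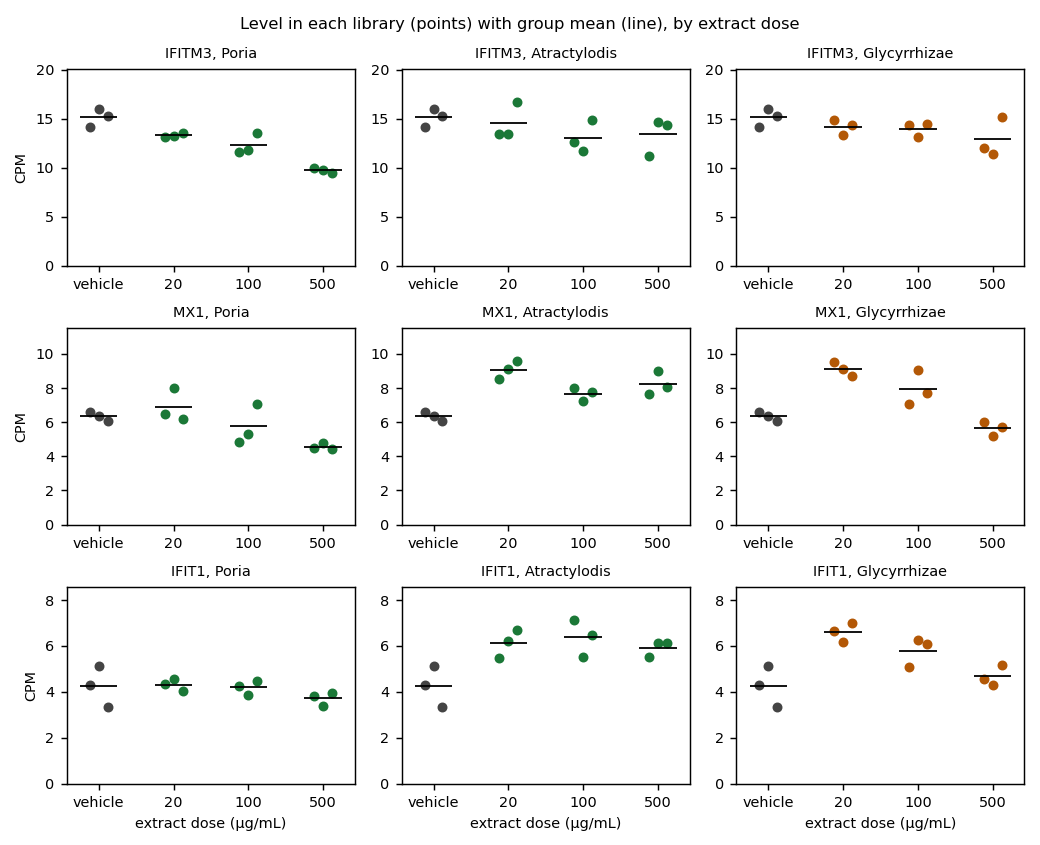
CPM (y axis, from 0) of IFITM3, MX1 and IFIT1 in each library (points, line at the group mean) with vehicle and with 20, 100 or 500 µg/mL (x axis) of Poria, Atractylodis or Glycyrrhizae. IFITM3 is lowest at Poria 500 (9.51 to 9.96 CPM), and MX1 under Glycyrrhizae is highest at 20 µg/mL (8.72 to 9.52 CPM).

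At the lower doses IFIT1 was the only member called in the 12 comparisons of 100 and 20 µg/mL with vehicle, in 3 of them. Without the filter on low counts there were 35 calls of members in these comparisons (31 higher, 4 lower). It was higher with Atractylodis 100, Atractylodis 20 and Glycyrrhizae 20 (2.08% called in each, against 0.221%, 0.137% and 0.203% of all genes called higher and 0.364%, 0.137% and 0.37% either way). IFIT1 was at 7.14, 5.53 and 6.47 CPM with Atractylodis 100 and at 5.49, 6.21 and 6.70 CPM with Atractylodis 20, against 4.31, 5.14 and 3.36 CPM with vehicle. The groups were apart, and the log2 fold changes were 0.57 ± 0.12 and 0.52 ± 0.12 (adjusted p = 0.00809 and 0.0464), with 0.63 ± 0.12 for Glycyrrhizae 20 (adjusted p = 0.00566). Vehicle replicate 3 was the lowest library, and without it 0 of the 3 calls held (adjusted p = 0.263, 0.611 and 0.15). Leaving out Atractylodis 100 replicate 1 gave 0.0892, and Glycyrrhizae 20 replicate 3 gave 0.053. For Atractylodis 20 the call was also lost without vehicle replicate 1 or its own replicate 2 or 3 (0.106, 0.203 and 0.327).

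With Atractylodis most members had small positive values at every dose, of which only the IFIT1 calls above passed the test. The library medians over the 48 members were 0.13, 0.14 and 0.16 at 500 µg/mL, 0.16, 0.14 and 0.20 at 100 µg/mL and 0.16, 0.23 and 0.30 at 20 µg/mL, all above the highest vehicle library (0.07). Against vehicle, 40, 41 and 45 of the 48 members had a positive log2 fold change at 500, 100 and 20 µg/mL. Over all genes tested, 49.3%, 49% and 49.5% were positive. At 500 µg/mL 0 members were called by edgeR's quasi-likelihood test, where 0.197% of all genes were called higher and 0.25% either way. An unadjusted p under 0.05 was found for 14 members. No share of all genes is given here for an unadjusted p, so the shares called are no background for such counts. In 15 members every Atractylodis 500 library was above every vehicle library, against 8.85% of all genes. Glycyrrhizae 20 showed the same kind of values: its library medians were 0.21, 0.12 and 0.20, also above 0.07. There 41 of 48 members were positive, against 50.1% of all genes, and 21 members had an unadjusted p under 0.05. Between 500 and 20 µg/mL of Atractylodis 0 members were called, and 0% of all genes were called either way. At an unadjusted p under 0.05 there were 5 members.

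Ginseng, Angelicae and Paeoniae had 0 members called at any dose against vehicle and between 500 and 20 µg/mL by the same test. At 500 µg/mL, 6, 11 and 13 members had an unadjusted p under 0.05. By adjusted p, 0.352%, 0.161% and 0.161% of all genes were called either way. These thresholds differ, so the shares called are no background for counts at an unadjusted p. The share of all genes at an unadjusted p is not given here for any comparison of these extracts. The member medians there were -0.09, -0.08 and -0.18. In the 2 Paeoniae 500 libraries 25 members lay below all vehicle libraries, against 14% of all genes, and with 2 libraries such separation is more frequent than with 3. At 100 and 20 µg/mL of these extracts, between 2 and 8 members had an unadjusted p under 0.05 in each comparison. Few genes of any kind were called there: 0% with Ginseng at both doses, 0.00596% and 0.173% with Angelicae 100 and 20, and 0.0477% and 0% with Paeoniae 100 and 20. Between 500 and 20 µg/mL the shares were 0%, 0.0179% and 0.0358% for Ginseng, Angelicae and Paeoniae. In the Paeoniae series, 47 of 48 members had a negative log2 fold change between 500 and 20 µg/mL, with a median of -0.22 and 16 members at an unadjusted p under 0.05, none of them called. Over all genes tested, 50.6% were positive there. In 32 members both libraries at 500 lay below both at 20, against 13% of all genes. Poria 100 and 20 and Glycyrrhizae 100, also without a member called, had 0.0417%, 0% and 0.34% of all genes called.

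The 2 extracts of a code set were also compared at the same dose, 9 differences in all, an analysis added after the values were seen. In these comparisons both extracts have the same leading code number. At 500 µg/mL, 11 of the 48 members were lower with Poria than with Atractylodis and 0 were higher, where 0.751% of all genes were called lower and 1.85% either way (edgeR's quasi-likelihood test, Benjamini-Hochberg adjustment over all genes). All 48 log2 differences were negative, with a median of -0.25. At 100 and 20 µg/mL 45 of 48 were negative (medians -0.19 and -0.24). Glycyrrhizae less Ginseng was positive in 32, 43 and 47 of 48 members at 500, 100 and 20 µg/mL, with medians of 0.05, 0.14 and 0.23 and with 22 members at an unadjusted p under 0.05 at 20 µg/mL. Angelicae less Paeoniae was positive in 38, 33 and 11 of 48 members at the same doses. For these counts of signs and of unadjusted p, no share of all genes is given.

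The members called were EPSTI1 (-1.64), OAS2 (-1.16), MX1 (-0.85), IFI27 (-0.68), IFIT1 (-0.67), IRF9 (-0.61), IFIT2 (-0.58), IFITM3 (-0.47), HERC6 (-0.44), OAS1 (-0.40) and PARP14 (-0.24), as log2 differences of Poria minus Atractylodis. MX1 was at 4.49, 4.79 and 4.42 CPM with Poria 500 and at 7.63, 8.97 and 8.03 CPM with Atractylodis 500 (adjusted p = 0.000678). IFIT1 was at 3.82, 3.36 and 3.97 CPM and at 5.50, 6.14 and 6.12 CPM (adjusted p = 0.000244). In both genes every Poria library was below every Atractylodis library. The count fell to 5 without Poria 500 replicate 2, to 6 without Atractylodis 500 replicate 2 or 3 and to 7 without Poria 500 replicate 3. It was 8 without Poria 500 replicate 1 and 11 without Atractylodis 500 replicate 1.

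At 100 µg/mL IFIT1 was lower with Poria than with Atractylodis by a log2 difference of -0.60, where 0.113% of all genes were called either way. At 20 µg/mL OAS1 (-0.40) and IFIT1 (-0.50) were lower, against 0.167% of all genes. Among the other 6 comparisons OAS3 was higher with Glycyrrhizae than with Ginseng by 0.29 at 500 µg/mL and 0.35 at 20 µg/mL, where 2.48% and 0.0835% of all genes were called either way. The remaining 4 comparisons had 0 members called, with 0.0895% of all genes called for Glycyrrhizae and Ginseng at 100 µg/mL, and 0.0179%, 0% and 0% for Angelicae and Paeoniae at 500, 100 and 20 µg/mL.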

How the data were processed

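Messenger RNA libraries (directional, MGI, per the labels' protocols) were made from HT29 cells. Per the submitters' processing notes, the tools named are FastQC 0.11.9, Trim Galore 0.6.5, STAR 2.7.3a and RSEM 1.3.3, with the build GRCh38/hg38. Which annotation release and which strand setting were used is not given in the sources used here. Deposited by the authors were expected counts per gene (estimated counts from RSEM); 24.2% of the values above 0 were not whole, and they were rounded to whole numbers here. Of 273 columns, 213 match no sample analysed here and were not used.

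Groups were taken from the labels. Genes were filtered with edgeR's filterByExpr (minimum count 10, minimum total count 15), scaled by TMM (trimmed mean of M values) and fitted with edgeR 4.0.16 in R 4.3.3 as 21 group means over all 60 libraries (39 residual degrees of freedom, biological coefficient of variation 0.0570). The quasi-likelihood test was used for each of 30 comparisons, with Benjamini-Hochberg adjustment over all 16767 genes. CPM values use the TMM-scaled totals. The library medians are of log2(CPM + 0.5). Intervals are at 95%. The fit and test were also run on simulated counts with known changes and the same spread for every gene. That run does not cover spread that differs between genes. Of 57 replicate pairs none agreed within sampling noise. Replicate numbers did not pair the samples in any of 27 comparisons.

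The members and gene lists were chosen with earlier results of these data known. All members are accounted for. In a comparison with calls, up to 10 called members with the largest absolute log2 fold change are named, with any called in the direction opposite to most. Their values are given in full against vehicle and between doses, but only for some of them between the inhibitors. Alternatives were other scalings (RLE size factors, library totals only), no filter, a replicate block, DESeq2 1.42.0, the compared groups alone, and each library left out. Exons are from GENCODE 29 and promoters from RefSeq. Counts over the pathway list include 1 gene that is not reported here.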

Additional observations from a re-analysis of the deposited data

How the results depend on the processing

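The results are counts of members called, out of 48, and the values of single named members; no alternative that was run reversed a direction. With library totals only in place of TMM, 1 member was called for Atractylodis 500 against vehicle (0 in the fit described above), 0 for Glycyrrhizae 500 against vehicle (1), 9 for Glycyrrhizae 500 against 20 (5) and 5 over the 12 comparisons of lower doses with vehicle (3). Without a filter on low counts the counts against vehicle were 8 for Poria 500, 4 for Atractylodis 500, 3 for Glycyrrhizae 500, 3 for Angelicae 500, 4 for Paeoniae 500 and 35 over the lower doses (31 higher, 4 lower). For 500 against 20 without a filter they were 1 for Atractylodis, 10 for Glycyrrhizae and 4 for Paeoniae, with 1 for the difference of Glycyrrhizae and Ginseng. With DESeq2 7 members were called over the lower doses. With the compared groups alone 2 were called for Poria 500 against vehicle and 8 for Glycyrrhizae 500 against 20. The cause of these shifts was not tested.

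With the replicate number as a block, 44 members were called for wortmannin against vehicle, 15 for LY294002, 41 between the inhibitors, 2 for Glycyrrhizae 500 against vehicle and 8 over the lower doses. The replicate numbers share only a number: for wortmannin and vehicle, same-numbered libraries correlated at 0.0387 to 0.108 in their deviations from the group means.

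Leaving out each library in turn gave 37 to 43 members for wortmannin against vehicle, 9 to 15 for LY294002 (9 without LY294002 replicate 3), 37 to 40 between the inhibitors, 1 to 6 for Poria 500, 0 to 1 for Atractylodis 500, 0 to 1 for Glycyrrhizae 500, 0 to 2 for Poria 500 against 20, 1 to 7 for Glycyrrhizae 500 against 20 and 0 to 6 over the lower doses, where 0 was reached without vehicle replicate 3. Each of the other counts stayed at 0. Of 549 values of single members under all alternatives, 461 kept their side of the threshold and 88 no longer passed. Members under 1 CPM rest on few counts, and the Paeoniae groups rest on 2 libraries.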
